A study of Mus musculus with 9 samples.

Results

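The genes described here were taken by symbol, as cytosolic and mitochondrial heat shock chaperones, from the libraries of 9 mouse livers. The set holds the HSP70 (Hspa), small heat shock protein (Hspb), HSP90 (Hsp90a), J-domain (Dnaja and Dnajb), BAG (Bag1 to Bag6) and chaperonin (Cct2 to Cct8) families, with Hspd1, Hspe1, Hsph1, Tcp1, Hsf1 and Hsf2. Hspa5, Dnajb9 and Dnajb11, which work in the endoplasmic reticulum, were left out. The choice was by symbol alone, so Hspa13, a microsomal ATPase, was kept. These symbols gave 58 genes of 24541 in the data, with 91 of the 36779 transcript models. Messenger RNA was sequenced from whole liver of Balb/c mice aged 9 weeks, in 3 groups of 3 livers labelled LRH1+APAP, APAP and vehicle. APAP is acetaminophen, a painkiller whose overdose injures hepatocytes, and LRH1 is a nuclear receptor of liver encoded by Nr5a2. The labels state neither dose nor route, neither sex nor time to collection, and do not say how LRH1 was supplied. The text of the series speaks of LRH1 for the group that the samples call LRH1+APAP, so that these livers received APAP rests on the sample labels alone. No group that received LRH1 without APAP was analysed here, so its effect in the absence of APAP could not be compared.

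Chaperones hold unfolded or damaged proteins, help them refold, or pass them on for degradation. In the heat shock response, free chaperones run short when proteins are damaged, and the transcription factor HSF1 is released and binds heat shock elements, repeats of the letters GAA and TTC, in front of chaperone genes. HSP70 works in a cycle in which J-domain proteins deliver the client and trigger ATP hydrolysis, and HSP110 and BAG proteins release the nucleotide; in liver, reactive metabolites of acetaminophen that bind cellular proteins are a known source of protein damage.

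APAP livers held far more chaperone mRNA than vehicle livers, and so did LRH1+APAP livers. The chaperones summed to 18412, 13689 and 14613 FPKM in LRH1+APAP livers, to 14479, 12370 and 13987 FPKM in APAP livers, and to 3386, 3438 and 3733 FPKM in vehicle livers. FPKM, fragments scaled by transcript length and by mapped fragments of the library, is a level per length, so levels of different genes can be compared. The chaperones took between 2.59% and 3.53% of all FPKM in LRH1+APAP livers, between 2.24% and 2.60% in APAP livers, and between 0.598% and 0.660% in vehicle livers. Every LRH1+APAP and APAP liver lay above every vehicle liver in this sum, and the LRH1+APAP and APAP ranges overlapped.

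**Figure D1:**
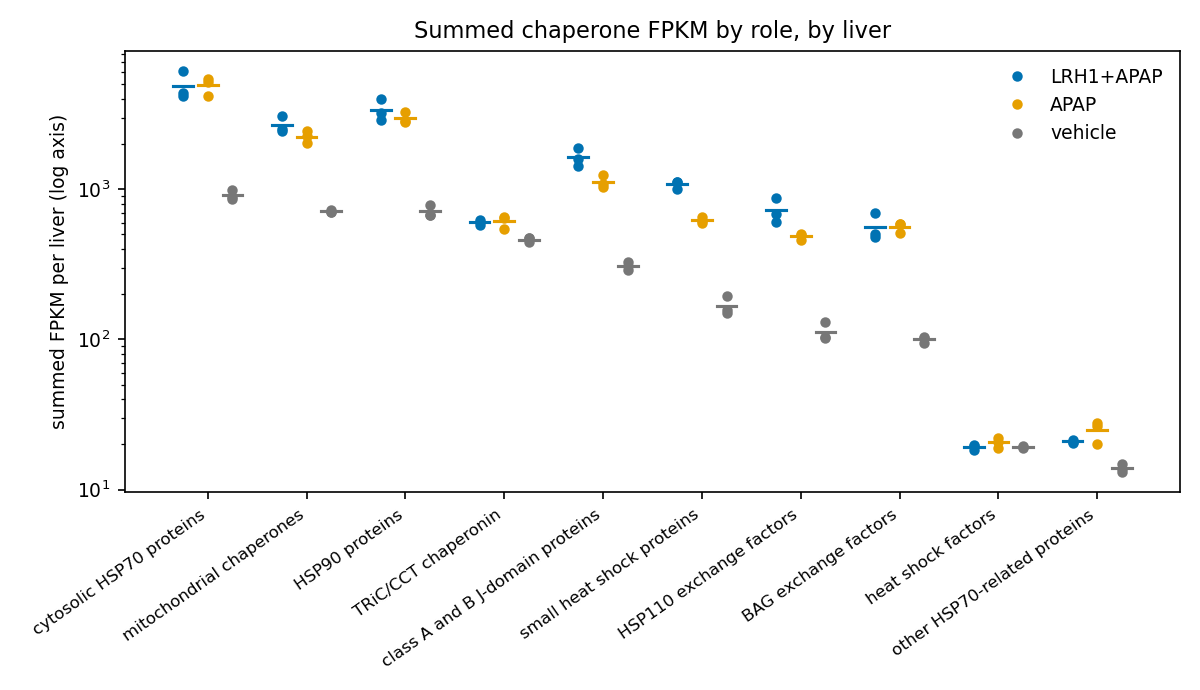
Summed FPKM of the chaperone genes of each role (log axis), with 1 point per liver and a line at the mean of 3 livers for LRH1+APAP, APAP and vehicle. The summed small heat shock proteins lay between 998 and 1118 FPKM in LRH1+APAP livers, between 597 and 656 FPKM in APAP livers and between 150 and 195 FPKM in vehicle livers, while the summed heat shock factors stayed between 18.3 and 22.2 FPKM in all 9 livers.

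The libraries were not equally alike. Rank correlations over genes were 0.989 to 0.991 among LRH1+APAP livers, 0.949 to 0.977 among APAP livers and 0.990 among vehicle livers. APAP liver 1 correlated with the LRH1+APAP livers at 0.974 to 0.980 and with the other APAP livers at 0.949 and 0.976. It was also the APAP liver most like the vehicle livers, at 0.942 to 0.948. APAP liver 2 correlated with the vehicle livers at 0.864 to 0.870 and APAP liver 3 at 0.902 to 0.910. Of 9 hepatocyte markers, 2 were higher and 5 lower in APAP livers than in vehicle livers, and their summed level was 47281 to 53588 FPKM in LRH1+APAP livers, 47817 to 50161 FPKM in APAP livers and 51755 to 55963 FPKM in vehicle livers. Of 8 neutrophil markers, 5 could be tested and all 5 were higher in APAP livers than in vehicle livers. Markers with low levels on average were filtered out before the test. Cxcr2 and Retnlg averaged 0.0396 and 0.117 FPKM in vehicle livers and 3.74 and 20.4 FPKM in APAP livers. These 2 markers passed the filter through their APAP levels, so the count of higher markers is partly set by the filter. The neutrophil sum was 5.53 to 6.51 FPKM in LRH1+APAP livers, 30.6, 466 and 47.4 FPKM in APAP livers, and 1.66 to 2.74 FPKM in vehicle livers, so APAP liver 2 stood apart. The neutrophil granule gene Mpo was listed at 0 in every LRH1+APAP and every vehicle liver and at most at 0.0326 FPKM in an APAP liver. Of 10 monocyte and macrophage markers, 9 were higher in APAP livers than in vehicle livers, with sums of 252 to 281 FPKM in LRH1+APAP livers, 184 to 288 FPKM in APAP livers and 101 to 117 FPKM in vehicle livers. Of other resident cells, 7 of 8 endothelial, 4 of 8 stellate and 3 of 4 tested cholangiocyte markers were higher in APAP livers, and none was lower. Over all genes tested, 47.8% were higher and 15.1% lower in APAP livers, so the stellate count is near the background. The part of these cell markers in the chaperone levels was not tested, and in whole liver a change in the number of cells of a type and a change in RNA per cell cannot be told apart.

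Each gene was tested with limma on log2(FPKM + 1), with p-values adjusted by the Benjamini-Hochberg method over all 12202 genes that had a mean of at least 0.5 FPKM. Of the 58 chaperone genes, 47 were tested. The 11 below that mean were Hspb2, Hspb3, Hspb7, Hspb9, Dnajb3, Dnajb7, Dnajb8, Dnajb13, Cct6b, Cct8l1 and Hspa12a, of which Dnajb3 had the highest mean, 0.493 FPKM over the 9 livers, and Hspb3 was listed at 0 in every liver. Bag2 and Hspa12b were the 2 tested genes with a vehicle mean below 0.5 FPKM, and neither passed the test in any comparison.

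In APAP livers, 34 of the 47 chaperone genes were higher than in vehicle livers, 2 were lower and 11 did not pass. Over all genes tested, 47.8% were higher and 15.1% lower, against 72.3% and 4.26% of the chaperone genes. The median log2 difference was 0.438 over the chaperone genes and 0.25 over all genes. The contrast with the rest of the transcriptome was clearer for large changes: 16 chaperone genes, 34.0% of those tested, were higher by a log2 difference of at least 1, against 9.89% of all genes, and none was lower by that much, against 2.91%. These 16 were Hspa1a, Hspa1b, Hspa1l, Hspa8, Hsph1, Hsp90aa1, Hsp90ab1, Hspb1, Hspb8, Dnaja1, Dnaja4, Dnajb1, Bag3, Hspd1, Hspe1 and Hspa13, and each passed under all 18 alternative settings, with a largest adjusted p of 0.00407. In LRH1+APAP livers, 33 chaperone genes were higher than in vehicle livers, against 39.2% of all genes, and 1 was lower, against 8.02%. Of these, 17 were higher by at least 1, against 5.87% of all genes, and 1, Dnajb6, was lower by at least 1, against 0.688%. The median was 0.487 over the 47 and 0.221 over all genes. After quantile normalization, 25 chaperone genes were higher and 6 lower in APAP than in vehicle livers, while over all genes 3126 were higher and 3699 lower, against 5835 and 1845 on the deposited scale. Both comparisons use the same 3 vehicle livers, so they are set side by side and their likeness is not a separate result.

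**Figure D2:**
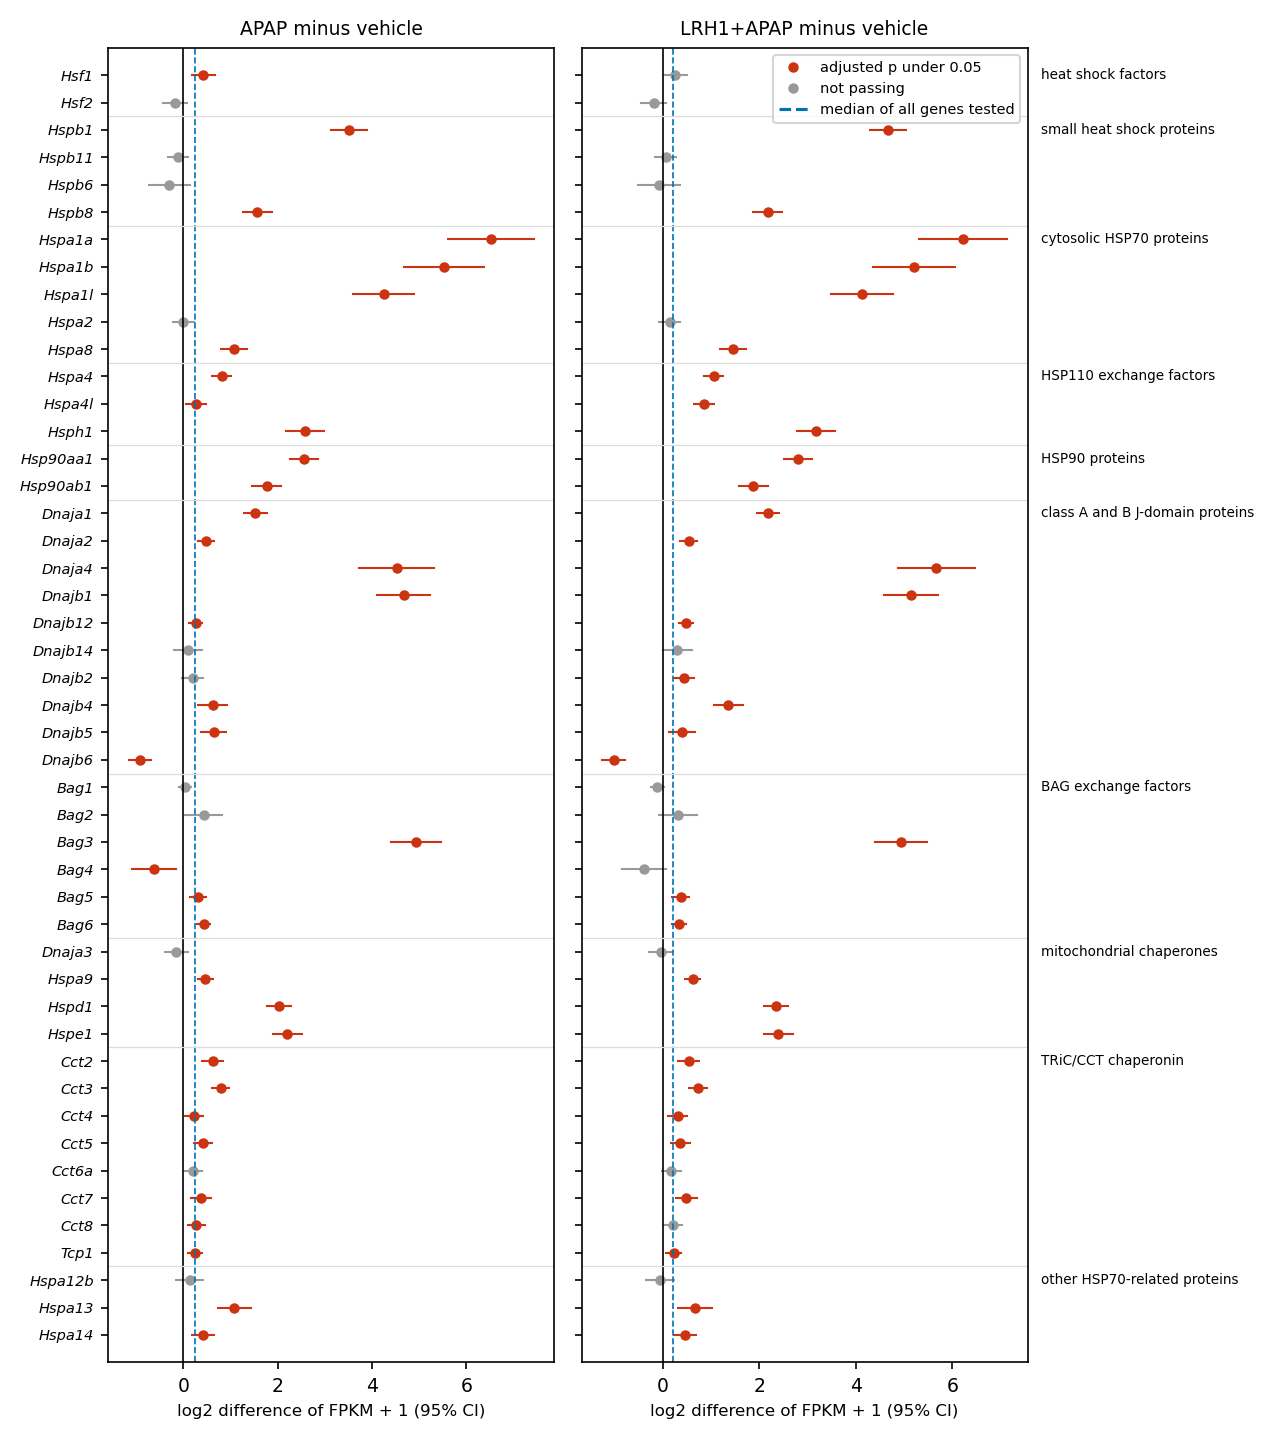
Log2 differences of FPKM + 1 for the 47 tested chaperone genes, grouped by role, for APAP minus vehicle (left) and LRH1+APAP minus vehicle (right). Points are estimates with 95% confidence intervals, red marks an adjusted p under 0.05 and the dashed line is the median of all genes tested; the points farthest to the right are Hspa1a at 6.52 in APAP livers and 6.22 in LRH1+APAP livers, and the points farthest to the left are Dnajb6 at -0.92 and -1.02.

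The heat shock factors themselves changed little. Hsf1, the transcription factor that switches on the response, was listed at 8.95, 8.85 and 8.13 FPKM in LRH1+APAP livers, 8.22, 10.1 and 11.3 FPKM in APAP livers, and 7.20, 6.80 and 7.16 FPKM in vehicle livers. All LRH1+APAP and APAP livers lay above the vehicle livers, and the test passed for APAP against vehicle (log2 0.42, adjusted p = 0.00749) but not for LRH1+APAP against vehicle (log2 0.26, adjusted p = 0.0715). On the transcript model with the highest mean alone, the APAP difference was -0.19 (adjusted p = 0.682), and after quantile normalization it was 0.11 (adjusted p = 0.333), so the call depends on the scaling and the direction for Hsf1 on which models are counted. Hsf2, a related factor, had overlapping ranges in APAP livers, at 8.87 to 12.7 FPKM, and in vehicle livers, at 11.6 to 12.8 FPKM (log2 -0.17, adjusted p = 0.221). HSF1 is regulated mainly at the protein level, which these data do not measure.

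On the log2 scale, the largest rises of APAP over vehicle livers were in Hspa1a and Hspa1b, the stress-inducible cytosolic HSP70 genes, whose products are ATP-driven foldases. Hspa1a was listed at 1477, 878 and 734 FPKM in LRH1+APAP livers, 1623, 882 and 1242 FPKM in APAP livers, and 6.68, 12.7 and 20.8 FPKM in vehicle livers. Hspa1b was listed at 2040, 1251 and 1169 FPKM in LRH1+APAP livers, 2202, 1405 and 1907 FPKM in APAP livers, and 21.8, 38.4 and 66.2 FPKM in vehicle livers. In both genes vehicle liver 1 was the lowest and vehicle liver 3 the highest of their group, and all 3 lay far below every other liver. The log2 differences of APAP against vehicle were 6.52 ± 0.40 for Hspa1a (SE, adjusted p = 1.52e-05) and 5.53 ± 0.38 for Hspa1b (adjusted p = 2.60e-05), higher in 3 of 3 livers. The ratio of mean levels was 93.3 for Hspa1a and 43.7 for Hspa1b. Hspa1l, a neighbour in the same cluster that is best known from testis, was listed at 46.9, 31.1 and 24.4 FPKM in LRH1+APAP livers, 48.6, 23.0 and 41.4 FPKM in APAP livers, and 0.900, 0.935 and 0.992 FPKM in vehicle livers (APAP against vehicle log2 4.25, adjusted p = 2.56e-05).

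Reads of these 3 genes are hard to separate. Hspa1b (chromosome 17, 34956430 to 34959238, mm10), Hspa1a (34969360 to 34972156) and Hspa1l (34972704 to 34979228) lie side by side. In the GENCODE M21 transcripts, Hspa1a and Hspa1b were identical at 92.96% of aligned bases and shared 58.81% of their 50-base stretches, and Hspa1a shared 7.95% of such stretches with Hspa1l. The split of FPKM between them is therefore uncertain. Their upstream sequences are shown because the 2 main genes rose side by side: RefSeq (GRCm38.p6) gives nearly the same 250 bases in front of both, with 247 identical, and capitals mark the 3 bases that differ.
Hspa1a, chr17:34972157-34972406, minus strand: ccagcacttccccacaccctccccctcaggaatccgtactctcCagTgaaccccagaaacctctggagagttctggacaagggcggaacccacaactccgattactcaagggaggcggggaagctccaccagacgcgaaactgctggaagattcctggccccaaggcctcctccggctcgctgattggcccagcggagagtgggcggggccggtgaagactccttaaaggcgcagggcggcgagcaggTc
Hspa1b, chr17:34959239-34959488, minus strand: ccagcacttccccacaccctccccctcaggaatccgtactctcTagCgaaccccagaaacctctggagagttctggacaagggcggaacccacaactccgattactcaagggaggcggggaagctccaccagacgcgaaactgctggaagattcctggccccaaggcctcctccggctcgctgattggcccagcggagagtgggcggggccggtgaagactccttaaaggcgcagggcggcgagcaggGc

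The constitutive HSP70 gene Hspa8 changed less and from a far higher level. Hspa8 was listed at 2579, 2040 and 2430 FPKM in LRH1+APAP livers, 1559, 1895 and 2000 FPKM in APAP livers, and 863, 803 and 895 FPKM in vehicle livers, where it had the highest mean of all the chaperone genes. The groups did not overlap with vehicle, and the log2 difference was 1.08 for APAP (adjusted p = 0.000217) and 1.45 for LRH1+APAP (adjusted p = 6.90e-05). Hspa2, the testis HSP70, stayed near the detection limit, with means of 0.697 FPKM in LRH1+APAP livers, 0.539 FPKM in APAP livers and 0.538 FPKM in vehicle livers. Hspa1a and Hspa1b were listed far below Hspa8 in every vehicle liver, whereas in APAP livers Hspa1b averaged 1838 ± 403 FPKM and Hspa8 1818 ± 230 FPKM (SD, n = 3 each).

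**Figure D3:**
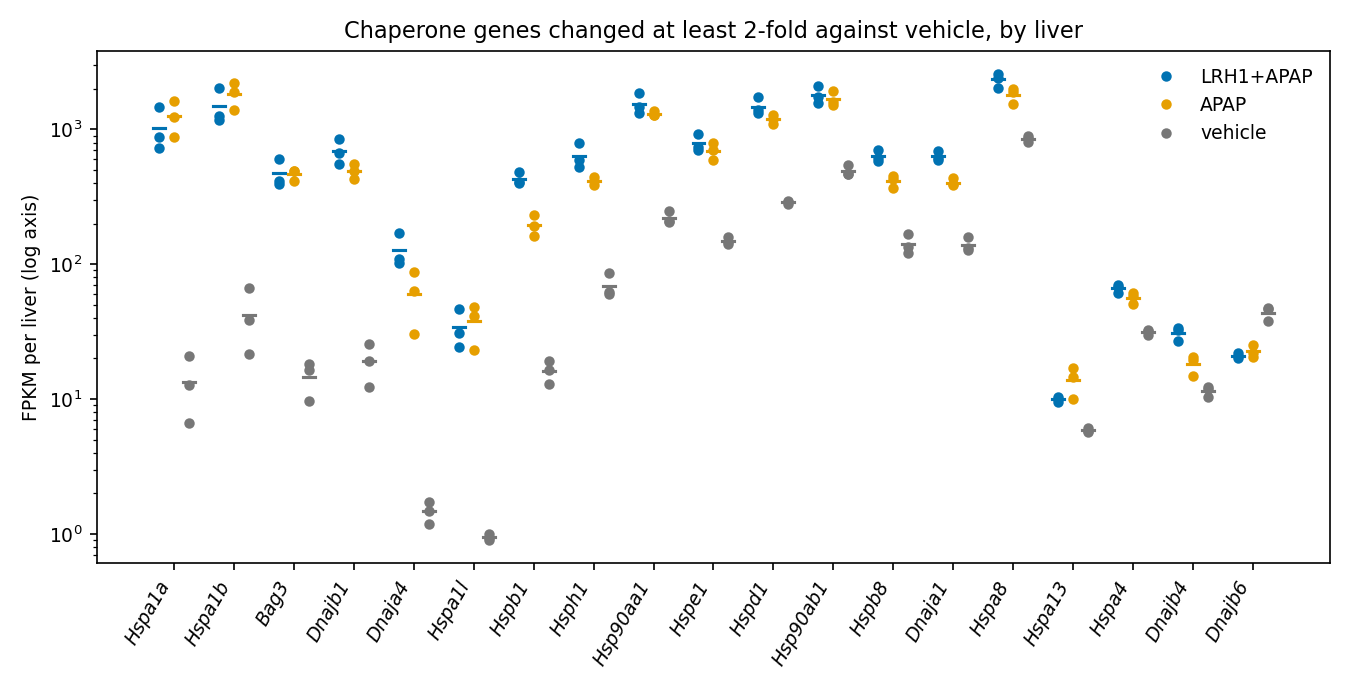
FPKM per liver (log axis) of the 19 chaperone genes that passed the test with a log2 difference of at least 1 in either direction against vehicle, with 1 point per liver and a line at each mean, ordered by the APAP difference. Hspa1a at the left has vehicle livers between 6.68 and 20.8 FPKM and APAP livers between 882 and 1623 FPKM, and Dnajb6 at the right is the only gene of the 19 with every vehicle liver above all others.

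The 2 HSP90 genes, whose products finish the folding of kinases and steroid receptors, both rose. Hsp90aa1, the inducible form, was listed at 1870, 1317 and 1477 FPKM in LRH1+APAP livers, 1366, 1274 and 1280 FPKM in APAP livers, and 208, 206 and 248 FPKM in vehicle livers (APAP against vehicle log2 2.56, adjusted p = 7.26e-06). Hsp90ab1, the constitutive form, was listed at 2118, 1574 and 1740 FPKM in LRH1+APAP livers, 1915, 1520 and 1586 FPKM in APAP livers, and 465, 465 and 541 FPKM in vehicle livers (log2 1.77, adjusted p = 4.38e-05). In both genes the vehicle livers lay apart and the other 2 groups overlapped. The vehicle mean of Hsp90ab1, 490 FPKM, was above that of Hsp90aa1, 221 FPKM, while their APAP means were 1674 and 1307 FPKM.

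The 3 HSP110 genes, exchange factors for HSP70 that also keep aggregates soluble, rose by very different amounts. Hsph1 was listed at 788, 522 and 593 FPKM in LRH1+APAP livers, 441, 386 and 418 FPKM in APAP livers, and 60.1, 62.1 and 86.0 FPKM in vehicle livers (APAP against vehicle log2 2.58, adjusted p = 2.59e-05). Hspa4 was listed at 68.1, 61.4 and 70.0 FPKM in LRH1+APAP livers, 50.6, 57.8 and 60.7 FPKM in APAP livers, and 29.8, 32.5 and 32.2 FPKM in vehicle livers (log2 0.82, adjusted p = 0.000178). The 3 groups did not overlap in either gene. Hspa4l was listed at 21.7, 21.1 and 20.9 FPKM in LRH1+APAP livers, 14.4, 13.6 and 13.7 FPKM in APAP livers, and 12.5, 9.64 and 11.9 FPKM in vehicle livers, and its APAP difference of 0.28 (adjusted p = 0.0283) was close to the median of all genes and became -0.015 (adjusted p = 0.905) after quantile normalization.

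Small heat shock proteins hold unfolded proteins without using ATP. Of the 8 genes taken by an Hspb symbol, 4 were tested, and only Hspb1 and Hspb8 passed the test in any comparison. Hspb1 (HSP25 of mouse) lies on chromosome 5 between 135887920 and 135889563 (mm10). Its level was 409, 400 and 485 FPKM in LRH1+APAP livers, 232, 162 and 192 FPKM in APAP livers, and 19.1, 13.0 and 16.4 FPKM in vehicle livers. Its 3 groups formed separate steps with no overlap, and the log2 differences were 3.52 ± 0.16 for APAP against vehicle (SE, adjusted p = 4.83e-06) and 4.67 ± 0.16 for LRH1+APAP against vehicle (adjusted p = 1.02e-06). Hspb8, which pairs with BAG3 to send damaged proteins to autophagy, was listed at 700, 588 and 614 FPKM in LRH1+APAP livers, 370, 427 and 455 FPKM in APAP livers, and 121, 134 and 169 FPKM in vehicle livers (APAP against vehicle log2 1.57, adjusted p = 8.16e-05). Hspb6 (means of 4.10, 3.46 and 4.35 FPKM in LRH1+APAP, APAP and vehicle livers) and Hspb11 (5.34, 4.63 and 5.08 FPKM) had overlapping ranges.

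The J-domain proteins, which choose clients for HSP70, held both a very large rise and the clearest fall. Of the 14 genes, 10 were tested. Of these, 7 were higher and 1 lower in APAP livers than in vehicle livers, against 47.8% and 15.1% of all genes. Dnajb1, the main partner of inducible HSP70, was listed at 847, 558 and 664 FPKM in LRH1+APAP livers, 428, 495 and 556 FPKM in APAP livers, and 12.2, 19.2 and 25.6 FPKM in vehicle livers (APAP against vehicle log2 4.68, adjusted p = 7.77e-06). Dnaja4 was listed at 170, 109 and 103 FPKM in LRH1+APAP livers, 63.5, 30.3 and 88.0 FPKM in APAP livers, and 1.19, 1.48 and 1.72 FPKM in vehicle livers (log2 4.52, adjusted p = 4.65e-05). Every vehicle liver lay below every other liver in both genes, and the ratios of APAP to vehicle means were 25.9 for Dnajb1 and 41.4 for Dnaja4. In GENCODE M21, Dnaja4 shares 1581 exon bases with Wdr61 on the opposite strand. Strand is not stated for these libraries, so reads of that stretch could not be told apart. Wdr61 lay at 29.6 to 32.7 FPKM in LRH1+APAP, 26.3 to 31.8 FPKM in APAP and 30.1 to 35.3 FPKM in vehicle livers.

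Dnaja1, a general HSP70 partner of the cytosol, was listed at 691, 595 and 619 FPKM in LRH1+APAP livers, 392, 385 and 436 FPKM in APAP livers, and 127, 133 and 160 FPKM in vehicle livers (APAP against vehicle log2 1.53, adjusted p = 2.60e-05). Dnajb4 was listed at 32.6, 26.8 and 33.6 FPKM in LRH1+APAP livers, 14.9, 19.5 and 20.6 FPKM in APAP livers, and 10.4, 12.2 and 11.8 FPKM in vehicle livers (log2 0.62, adjusted p = 0.0039). In both genes the 3 groups were separate. Dnaja2, Dnajb5 and Dnajb12 rose by 0.47, 0.65 and 0.27 in APAP livers (adjusted p = 0.000927, 0.00174 and 0.0057), while Dnajb2 (0.20, adjusted p = 0.0969) and Dnajb14 (0.093, adjusted p = 0.557) did not pass.

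Dnajb6, a chaperone known for keeping polyglutamine proteins from aggregating, went the other way. It was listed at 20.8, 20.3 and 21.9 FPKM in LRH1+APAP livers, 20.6, 25.3 and 22.1 FPKM in APAP livers, and 47.2, 46.4 and 37.7 FPKM in vehicle livers. Each vehicle liver lay above all 6 others, and the log2 difference was -0.92 for APAP (adjusted p = 0.000236) and -1.02 for LRH1+APAP (adjusted p = 0.00022). The fall of the gene was not shared by its 4 transcript models. The 1637-base model was listed at 3.26, 3.72 and 4.89 FPKM in LRH1+APAP livers, 3.13, 5.86 and 3.69 FPKM in APAP livers, and 37.3, 38.0 and 29.7 FPKM in vehicle livers. The 2698-base model was listed at 11.7, 11.2 and 11.0 FPKM in LRH1+APAP livers, 12.1, 12.6 and 12.7 FPKM in APAP livers, and 5.16, 5.08 and 4.66 FPKM in vehicle livers. One model was therefore low and the other high in every liver of the LRH1+APAP and APAP groups, with no overlap with vehicle. In a limma fit on single models, chosen after the data had been seen, the 1637-base model fell by 2.81 on the log2 scale in APAP livers (adjusted p = 9.53e-05), against 10.9% of 16253 models lower. The 2698-base model rose by 1.17 (adjusted p = 3.88e-05), against 33.5% of models higher. The 1634-base model rose by 0.65 (adjusted p = 0.00586) and the 1113-base model differed by 0.30 (adjusted p = 0.196). The 1637-base model made up 18.9% of Dnajb6 FPKM in LRH1+APAP livers, 18.7% in APAP livers and 80.1% in vehicle livers, and the 2698-base model 53.8% in LRH1+APAP livers, 55.0% in APAP livers and 11.4% in vehicle livers. FPKM of overlapping models are estimates that share reads, so the shares rest on how the authors' software assigned them.

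**Figure D4:**
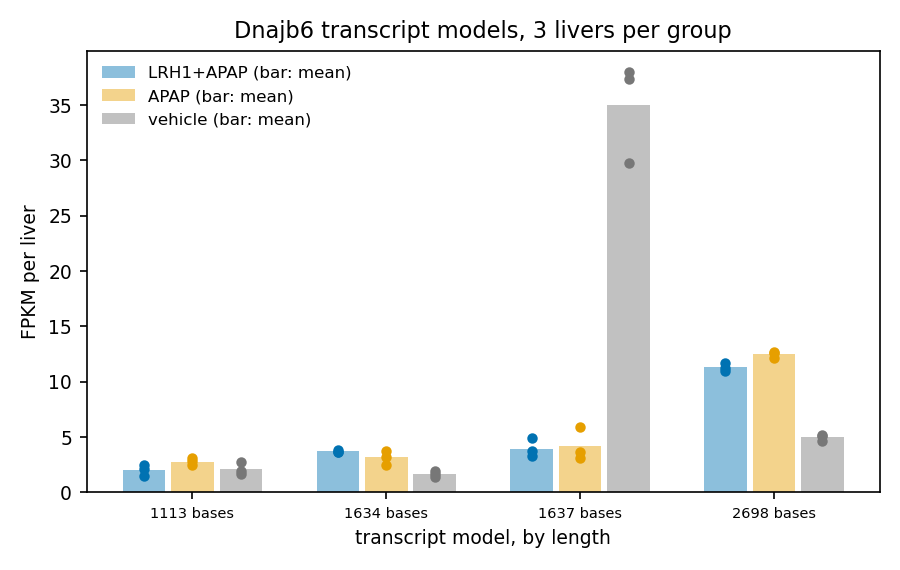
FPKM of the 4 Dnajb6 transcript models, named by their length in bases, with 1 point per liver and bars at the mean of 3 livers. The 1637-base model stands at 29.7 to 38.0 FPKM in vehicle livers and below 6 FPKM in every other liver, while the 2698-base model is lowest in vehicle livers.

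Bag3, the stress-inducible member of the BAG exchange factors and an organiser of autophagy of damaged proteins, was listed at 606, 397 and 416 FPKM in LRH1+APAP livers, 491, 418 and 494 FPKM in APAP livers, and 9.59, 16.4 and 18.1 FPKM in vehicle livers. The vehicle livers lay far below and the other groups overlapped (APAP against vehicle log2 4.94 ± 0.23, SE, adjusted p = 4.83e-06). Its 5 relatives moved far less on the log2 scale. Bag6 and Bag5 differed by 0.43 and 0.30 in APAP livers (adjusted p = 0.000647 and 0.00734), but after quantile normalization Bag6 was at 0.18 (adjusted p = 0.0575) and Bag5 at -0.014 (adjusted p = 0.875). On the transcript model of highest mean, both also missed the threshold. Bag1, with means of 50.8, 56.4 and 54.9 FPKM in LRH1+APAP, APAP and vehicle livers, did not pass. Bag2, with means of 0.572, 0.745 and 0.265 FPKM, did not pass either (APAP against vehicle log2 0.44, adjusted p = 0.0522). Every APAP liver lay above every vehicle liver in Bag2, at a ratio of means of 2.81. It passed in 4 of the 17 alternatives that kept it, and its log2 difference ranged from 0.12 to 1.13. Bag4 was lower in APAP livers, at 5.35 ± 2.26 FPKM, than in vehicle livers, at 8.39 ± 0.44 FPKM (SD, n = 3 each, log2 -0.62, adjusted p = 0.025). That call was lost in 6 of the 18 alternatives, which were the fit on 6 libraries and those without APAP liver 2 or 3 or without any 1 vehicle liver. The adjusted p reached 0.0785, and the log2 difference was -0.41 without APAP liver 2.

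In mitochondria, the chaperonin pair Hspd1 (HSP60) and Hspe1 (HSP10), which form the folding chamber of the matrix, both rose. In GENCODE M21 they share 112 exon bases on opposite strands. The models with deposited FPKM do not overlap, at 55077835 to 55087932 for Hspd1 and 55088149 to 55091317 for Hspe1. Hspd1 was listed at 1733, 1324 and 1386 FPKM in LRH1+APAP livers, 1292, 1092 and 1188 FPKM in APAP livers, and 292, 296 and 280 FPKM in vehicle livers (APAP against vehicle log2 2.03, adjusted p = 8.71e-06). Hspe1 was listed at 929, 745 and 707 FPKM in LRH1+APAP livers, 793, 590 and 705 FPKM in APAP livers, and 141, 147 and 160 FPKM in vehicle livers (adjusted p = 1.43e-05). The ratios of APAP to vehicle means were 4.11 for Hspd1 and 4.66 for Hspe1. Hspa9 (mortalin), the HSP70 of the matrix, rose much less, with 348, 344 and 367 FPKM in LRH1+APAP livers, 313, 311 and 323 FPKM in APAP livers, and 230, 242 and 214 FPKM in vehicle livers (log2 0.46, adjusted p = 0.00068). Its J-domain partner Dnaja3 had means of 43.9, 41.1 and 45.4 FPKM in LRH1+APAP, APAP and vehicle livers and did not pass (APAP against vehicle log2 -0.15, adjusted p = 0.253).

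Hspd1 and Hspe1 stand head to head on chromosome 1, with RefSeq start sites at 55087932 on the minus strand and 55088148 on the plus strand, 215 bases apart. A heat shock element of 3 alternating units, GAA, TTC and GAA or TTC, GAA and TTC with any 2 bases between units, was searched on both strands of RefSeq promoter windows (250 bases before to 50 after a start site, GRCm38.p6). It occurred in 198 of 32851 windows (0.603%) and in 179 of 27025 genes with a window (0.662%). A window was available for 49 chaperone genes, and the others, among them Hsp90aa1, Hsp90ab1, Hspa8 and Hsf1, were not searched. Of the 49, 4 held the element, namely Hspd1, Hspe1, Hsph1 and Dnajb6. The stretches are shown because these are the 4 genes with the full repeat, and capitals mark it; in the first stretch 2 overlapping matches, shared by both genes, run together.
Hspd1 and Hspe1, chr1:55088053-55088082, plus strand: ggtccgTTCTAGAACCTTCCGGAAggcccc
Hsph1, chr5:149636280-149636308, minus strand, after the start site: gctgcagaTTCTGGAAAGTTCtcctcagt
Dnajb6, chr5:29735844-29735872, plus strand: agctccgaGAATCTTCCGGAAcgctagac

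Of these 4 genes, Hspd1, Hspe1 and Hsph1 were higher and Dnajb6 lower in APAP livers than in vehicle livers. A shorter repeat of 2 units, GAANNTTC or TTCNNGAA, was searched after the data had been seen and counted also inside the longer one. It was found in 15.1% of windows, in 17.0% of all genes with a window and in 18 of the 49 chaperone genes. Beside the 4 genes above, the 18 were Hspa1a, Hspa1b, Hspb1, Hspb8, Dnaja1, Dnaja4, Dnajb4 and Bag3, and also Cct2, Cct5, Cct6a, Cct8l1, Hspb3 and Hspb6, of which Cct6a and Hspb6 did not pass in any comparison with vehicle and Cct8l1 and Hspb3 were too low to be tested. Hspb1 held the repeat at 2 places in front of its start site. Hspb1, Hspb8, Dnaja1 and Dnajb4 also differed between LRH1+APAP and APAP livers, as did Hspa4l, which was not among the 18. Hspa1a (-0.30), Hspa1b (-0.33) and Bag3 (-0.0064), also among the 18, did not pass there, nor did any other of the 18 that was tested. A link between the repeat and this difference was not tested. Hspb8 held the repeat just after its start site and is not printed. Capitals mark the repeat in the stretches of Hspb1, Dnaja1 and Dnajb4.
Hspb1, chr5:135887669-135887918, plus strand: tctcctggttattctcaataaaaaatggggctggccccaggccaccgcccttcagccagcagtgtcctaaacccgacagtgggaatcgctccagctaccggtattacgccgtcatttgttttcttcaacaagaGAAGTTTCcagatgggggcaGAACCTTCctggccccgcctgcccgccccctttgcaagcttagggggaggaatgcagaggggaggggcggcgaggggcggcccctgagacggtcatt
Dnaja1, chr4:40722334-40722361, plus strand: aaagcctctaGAAAATTCtacgaggctc
Dnajb4, chr3:152193842-152193869, minus strand: tcgttcgctgTTCTAGAAagtacagaga
These letters are a description of the windows, and binding of HSF1 was not measured.

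The chaperonin TRiC, a ring of CCT subunits that folds actin and tubulin, rose slightly. Of 8 subunit genes tested, 7 were higher in APAP livers than in vehicle livers, by 0.79 for Cct3, 0.62 for Cct2, 0.42 for Cct5, 0.37 for Cct7, 0.28 for Cct8, 0.25 for Tcp1 and 0.23 for Cct4, and Cct6a (0.21, adjusted p = 0.0613) did not pass. The median of the 8 was 0.326, near the 0.25 of all genes, of which 47.8% were higher. Cct4 passed narrowly (adjusted p = 0.0432) and lost the call under 12 of the 18 alternative settings, and Cct8 and Tcp1 lost theirs after upper-quartile scaling and after quantile normalization, and Cct7 after upper-quartile scaling alone. The other HSP70-related genes Hspa14, a ribosome-associated HSP70, and Hspa13, a microsomal ATPase, rose by 0.42 (adjusted p = 0.00617) and 1.08 (adjusted p = 0.000568) in APAP livers. Hspa14 did not pass after quantile normalization, at 0.10 (adjusted p = 0.328). Hspa13 was listed at 10.4, 9.98 and 9.47 FPKM in LRH1+APAP livers, 10.1, 14.6 and 16.9 FPKM in APAP livers, and 5.71, 6.12 and 5.83 FPKM in vehicle livers. Its APAP liver 1 lay within the LRH1+APAP range and the other APAP livers above it. Hspa12b, with means of 0.419, 0.626 and 0.464 FPKM in LRH1+APAP, APAP and vehicle livers, did not pass.

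Across the 16 genes that rose by at least 1 in APAP livers, the same livers tended to lead or trail their group. LRH1+APAP liver 1 had the highest level of its group in 15 of the 16, APAP liver 2 the lowest of its group in 12, and vehicle liver 1 the lowest and vehicle liver 3 the highest of their group in 12 and 13. No single APAP liver led in this way, since liver 1 was highest for 9 genes and liver 3 for 7. The order of livers was not counted over all genes, so whether it is particular to these 16 was not tested. Genes that rise together are also not separate evidence about a liver.

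Between LRH1+APAP and APAP livers, 5 chaperone genes differed, all of them higher in LRH1+APAP livers. They were Hspb1, Hspb8, Hspa4l, Dnaja1 and Dnajb4. The 5 of 47, or 10.6%, compare with 7.13% of all genes higher, so the count is near the background and is not a result about the family as a whole. None of the 47 was lower by limma, against 5.17% of all genes. A log2 difference of at least 1 was reached upwards by Hspb1, against 1.07% of all genes, and downwards by none, against 0.82%. The median log2 difference was 0.103 over the chaperone genes and -0.013 over all genes. The count moved with single livers: without APAP liver 1, which resembled the LRH1+APAP livers most, 12 were higher and 2 lower, and the calls over all genes numbered 2031 higher and 2607 lower, against 870 and 631 with it. Without LRH1+APAP liver 1 or without LRH1+APAP liver 3, 3 were higher. In LRH1+APAP against APAP livers, 2 of 9 hepatocyte, 2 of 5 neutrophil and 2 of 10 monocyte and macrophage markers were lower. So were 3 of 8 endothelial and 1 of 8 stellate markers, where 5.17% of all genes were lower. No cell marker was higher, and the neutrophil count has the limit of the filter given above. Without APAP liver 2, which held the most neutrophil marker mRNA, 5 chaperone genes were higher and 0 lower.

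The largest of these differences was in Hspb1, where LRH1+APAP livers averaged 431 ± 46.9 FPKM and APAP livers 195 ± 34.9 FPKM (SD, n = 3 each), a ratio of 2.21. Its log2 difference was 1.15 ± 0.16 (SE, adjusted p = 0.00712, higher in 3 of 3 livers), and it stayed between 1.02 and 1.28 under the 18 alternatives with adjusted p of at most 0.0402. Dnaja1 averaged 635 ± 50 FPKM in LRH1+APAP livers and 404 ± 28.0 FPKM in APAP livers (log2 0.65, adjusted p = 0.0109). Hspa4l averaged 21.2 ± 0.418 FPKM in LRH1+APAP livers and 13.9 ± 0.437 FPKM in APAP livers (log2 0.58, adjusted p = 0.0107). Both kept their call in all 18 alternatives, with adjusted p of at most 0.0482 and 0.0488.

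Dnajb4 averaged 31.0 ± 3.65 FPKM in LRH1+APAP livers and 18.3 ± 3.03 FPKM in APAP livers (log2 0.74, adjusted p = 0.0156), and missed the threshold in 3 of 18 alternatives, with adjusted p of at most 0.0676. Hspb8 averaged 634 ± 58.8 FPKM in LRH1+APAP livers and 417 ± 43.2 FPKM in APAP livers (log2 0.60, adjusted p = 0.0281), and missed it in 5, with adjusted p of at most 0.0861. In all 5 genes the lowest LRH1+APAP liver lay above the highest APAP liver. The 5 were chosen by the test on these same livers, so this is no separate support. In GENCODE M21, Dnaja1 shares 608 exon bases with Smu1 on the opposite strand. Smu1 was listed at 24.1 to 31.0 FPKM in LRH1+APAP livers and 25.5 to 30.5 FPKM in APAP livers.

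**Figure D5:**
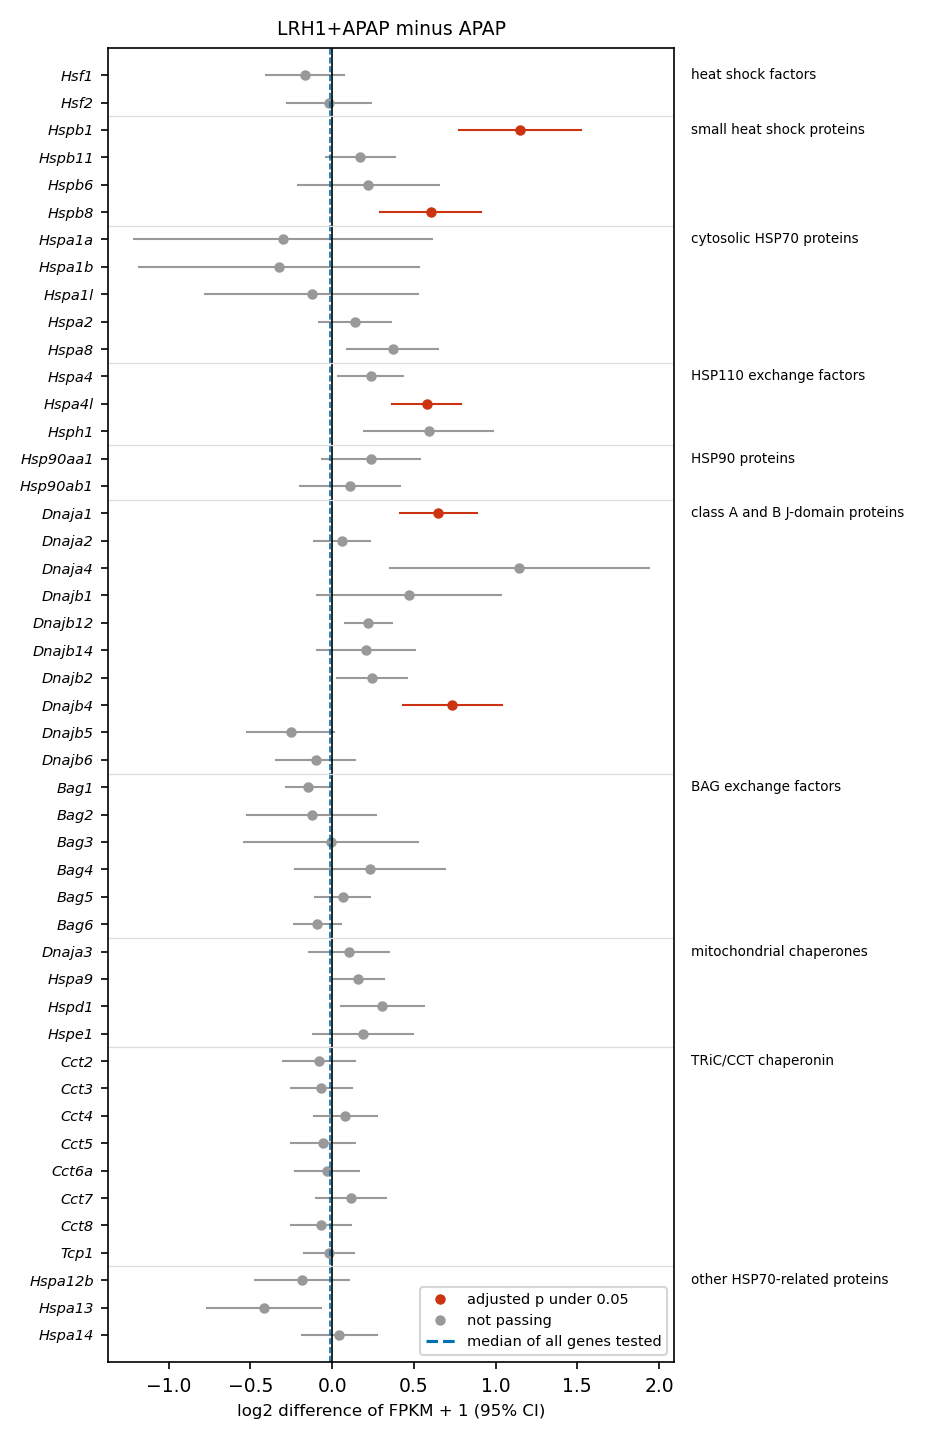
Log2 difference of FPKM + 1, LRH1+APAP minus APAP, for the 47 tested chaperone genes grouped by role, with 95% confidence intervals. Red marks the 5 genes with an adjusted p under 0.05, with Hspb1 at 1.15, and the dashed line is the median of all genes at -0.013; Dnaja4 sits as far right as Hspb1 but with an interval of 0.35 to 1.94.

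Hspa1a, Hspa1b and Bag3, which had the largest log2 rises of APAP over vehicle livers, were not among those 5. Hspa1a differed by -0.30 between LRH1+APAP and APAP livers (95% confidence interval -1.21 to 0.61, adjusted p = 0.628), Hspa1b by -0.33 (adjusted p = 0.571), and Bag3 by -0.0064 (adjusted p = 0.987). These intervals are wide, so the values do not show that the levels were alike. Dnaja4 differed by 1.15, as much as Hspb1, with all LRH1+APAP livers above all APAP livers, but did not pass (adjusted p = 0.0625). Without APAP liver 1 it did, at 1.24 (adjusted p = 0.0412). Hsph1 (0.59, adjusted p = 0.0587), Dnajb12 (0.22, adjusted p = 0.0508), Hspa8 (0.37, adjusted p = 0.0756) and Hspd1 (0.31, adjusted p = 0.0981) likewise had no overlap between the 2 groups and did not pass. Of these, Hsph1, Dnajb12 and Hspd1 passed without APAP liver 1, at 0.63, 0.21 and 0.37 (adjusted p = 0.0371, 0.0301 and 0.0371), whereas Hspa8 did not, at 0.26 (adjusted p = 0.0873). Dnajb1, Dnajb2, Hspa4 and Hspa9 also had all LRH1+APAP livers above all APAP livers without passing. Bag1 was separate downwards, at 49.1 to 52.4 FPKM in LRH1+APAP and 54.6 to 57.5 FPKM in APAP livers (adjusted p = 0.121). How many of all genes were separate in this way was not counted. The 8 chaperonin subunits differed by -0.081 to 0.12, and none passed.

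Of 20 co-chaperones of HSP70 and HSP90, 12 were higher and 3 lower in APAP livers than in vehicle livers, where 47.8% and 15.1% of all genes were. Those with the smallest p were Ptges3 (p23, 0.85), Unc45a (a myosin co-chaperone, 1.01) and Hspbp1 (an HSP70 exchange factor, 0.60). The 3 lower ones, picked after their values were seen, were Fkbp5 (-0.86), Cdc37l1 (-0.55) and Fkbp4 (-0.54). In LRH1+APAP livers, Chordc1 (0.56, adjusted p = 0.0423), Cdc37l1 (0.39, adjusted p = 0.0288) and Cacybp (0.29, adjusted p = 0.0441) were higher and Hspbp1 (-0.47, adjusted p = 0.0122) lower than in APAP livers. Of 14 genes of mitochondrial folding and quality control, which act beside Hspd1, 4 were higher and 1 lower in APAP livers, against the same 47.8% and 15.1%, with Afg3l2 and Lonp1, proteases of the organelle, at 0.39 each and Clpx at 0.81. The 1 lower gene was Trap1, the mitochondrial HSP90 (-0.31). Their median of 0.095 was below that of all genes, while Hspd1 and Hspe1 rose by over 2.

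Of 9 prefoldins and phosducin-like partners, which pass clients to TRiC, 7 were higher in APAP livers, against 47.8% of all genes, led by Pfdn4 (0.85), Pfdn2 (0.48) and Pdcl3 (0.73), and Pfdn2 (-0.42, adjusted p = 0.0304) and Pfdn6 (-0.30, adjusted p = 0.0492) were lower in LRH1+APAP livers than in APAP livers. Among 22 tested DNAJC proteins, J-domain proteins of specialised tasks, 10 were higher and 3 lower in APAP livers, shares close to the 47.8% and 15.1% of all genes, with Dnajc13, Dnajc5 and Dnajc2 at 0.73, 0.89 and 0.94. Dnajc28 differed between LRH1+APAP and APAP livers (0.58, adjusted p = 0.0303).

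Among genes outside the chaperones that are tied to the heat shock response, 6 were tested. Of these, 5 were higher in APAP than in vehicle livers, against 47.8% of all genes. In LRH1+APAP against APAP livers 1 was higher, against 7.13% of all genes. That one was Sqstm1, the p62 adaptor that carries ubiquitinated proteins to autophagy, with 1589, 1414 and 1741 FPKM in LRH1+APAP livers, 888, 1068 and 1016 FPKM in APAP livers, and 164, 170 and 166 FPKM in vehicle livers. Its 3 groups did not overlap (LRH1+APAP against APAP log2 0.67, adjusted p = 0.00763). Ubb, a polyubiquitin gene, rose by 0.92 in APAP livers over vehicle livers (adjusted p = 0.000467).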

How the data were processed

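Messenger RNA of 9 livers, 3 per group, was measured, and each library is labelled as 1 liver. The deposited FPKM of the authors list 1 value per transcript model and library on mm10. FastQC 0.10.0, Bowtie2 2.2.6 and StringTie 1.3.3b appear in the submitters' processing notes, without roles. Strand and scaling between libraries are not stated. Only 38.7% to 48.1% of low values were whole multiples of 1 read (tolerance 0.05), so read depth is unknown and no counting interval is given.

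FPKM was summed over the models of a symbol, genes averaging under 0.5 FPKM over the 9 livers were dropped, and log2(FPKM + 1) was fitted in R 4.3.3 with limma 3.58.1 (intensity trend, all 9 livers, 6 residual degrees of freedom), with Benjamini-Hochberg adjustment over 12202 genes and a threshold of 0.05. Log2 differences on this scale understate changes of low genes. Whether livers are separate animals is not stated beyond their numbering, so p-values measure the spread between these samples. The fit was tested on simulated data. Promoter windows are from RefSeq, and transcripts from GENCODE M21. Values in every liver are given for a fixed panel and for members that passed with an absolute log2 difference of at least 1 at 5 FPKM or more, and from each pathway list the 3 genes with the smallest p, except 1 gene that is not reported here. Members, panel and lists were chosen with earlier results of these data known. The 18 alternatives vary the pseudocount, filter, scaling, block, libraries, transcript models and variance trend, or leave out 1 liver.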

Additional observations from a re-analysis of the deposited data

How the results depend on the processing

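With a main count of 34 chaperone genes higher in APAP than in vehicle livers, the alternatives gave 25 to 36, and with 33 higher in LRH1+APAP than in vehicle livers, 26 to 37, neither beyond 1.5 times the main count. The 2 lower in APAP livers became 4 without a filter on low values, 6 after quantile normalization, 1 with only 6 libraries in the fit, and 1 to 4 when single livers were left out. The 5 higher in LRH1+APAP than in APAP livers became 9 after quantile normalization, 3 with 6 libraries and 3 to 12 without single livers, and the 0 lower became 0 to 2. The 1 lower in LRH1+APAP than in vehicle livers became 2 without a filter, 2 after upper-quartile scaling, 5 after quantile normalization, 3 with 6 libraries and 1 to 2 without single livers. The sign turned for 3 genes, all in APAP against vehicle: Bag5 (-0.014) and Hspa4l (-0.015) after quantile normalization and Hsf1 (-0.19) on its main transcript model. The cause was not tested.

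Scaling moved the whole table. The median of all genes in APAP against vehicle was 0.25 as deposited, 0.113 after upper-quartile scaling and -0.037 after quantile normalization, with 5835, 4554 and 3126 genes higher and 1845, 2531 and 3699 lower. In LRH1+APAP against vehicle, 4780, 3157 and 1899 were higher and 979, 1580 and 2624 lower. Small rises of Tcp1, Cct4, Cct8 and Dnajb12 in APAP livers lost their call under both scalings. The liver numbers did not pair the samples (correlations of deviations between -0.136 and 0.0682). With liver number as a replicate block the counts were 34 higher and 2 lower in APAP against vehicle, 5 and 0 in LRH1+APAP against APAP, and 33 and 1 in LRH1+APAP against vehicle, with Cct4 lost and Bag2 gained in APAP against vehicle. Read depth was not available to set limits for low genes.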
